A study of Danio rerio with 6 samples.

Results

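Megalin, its clathrin adaptor and a sulfate exchanger of the kidney proximal tubule were followed here in captures of a different nephron segment, the distal pronephric tubule of zebrafish embryos. The genes are lrp2a and lrp2b, the 2 zebrafish genes for megalin, DAB2, a row named for an adaptor protein of megalin, and slc26a1, a sulfate and anion exchanger. They were taken by name from the deposited count table and are 4 of its 10022 rows. All 4 passed the filter on low counts, but lrp2b and slc26a1 passed only through the mutants. The embryos were collected at 48 hours post fertilization, and the tubule cells were cut out by laser capture. There were 3 control libraries (epcam+/+) and 3 epcam mutant libraries (epcamhi2151/hi2151). Both groups carried Tg(wt1b:GFP) and Tg(cdh17:GFP), reporters driven by wt1b and by the tubule gene cdh17. The libraries came from total RNA amplified as whole cDNA with random and poly-A primers, without strand information. The number of embryos behind each library, and whether the libraries of a group came from separate clutches, are not given in the sources used here, so p-values measure the spread between these samples, which may be technical.

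Megalin is a very large receptor of the LDL receptor family that sits on the apical membrane of proximal tubule cells and takes filtered proteins out of the tubule fluid by clathrin-mediated endocytosis. DAB2 binds the cytoplasmic tail of megalin and the clathrin machinery. Slc26a1 lies, in mammals, on the basolateral side of proximal tubule cells and carries sulfate out of the cell in exchange for other anions. In the zebrafish pronephros megalin-dependent uptake is a property of the proximal segment, so these transcripts are not markers of the distal segment named in the labels. Megalin is also known from neural and sensory epithelia, and DAB2 from endothelium and absorptive gut cells.

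Some properties of the 6 libraries bear on every value. Each column of the count table except control 2 has a lowest value above 0, between 11 and 32, which was subtracted as a constant. Library totals were then 188022 to 746232 in the controls and 126861 to 250714 in the mutants. The count of epcam itself was 10, 15 and 10 in controls 1 to 3 and 0 in each mutant, where a floor of 3 counts equals 8.58 to 19.5 CPM (depth-scaled counts with edgeR's TMM factors). The library names of controls 1 and 2 begin with 1 prefix and those of control 3 and the 3 mutants with another; libraries that share a prefix are called a project here, and what the prefix marks is not given. Control 3 stood apart from the other controls. Its 26 distal and pan-pronephric marker rows summed to 2487 CPM, the lowest sum of the controls, whose highest was 18633 CPM. The same markers ranged from 2405 CPM in mutant 2, close to control 3, to 14032 CPM in mutant 1. The sodium pump subunit atp1a1a.4, the most abundant of these markers, was counted 2491, 3169 and 59 times in the controls, against 896, 89 and 613 times in the mutants.

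The 4 rows do not overlap any other row of the table. On GRCz10, lrp2a (ENSDARG00000102506) spans 257.3 kb of chromosome 9, from 48717448 to 48974769 on the plus strand, and lrp2b (ENSDARG00000007906) spans 96.8 kb of chromosome 12, from 16083802 to 16180592 on the plus strand. DAB2 (ENSDARG00000053091) spans 73.8 kb of chromosome 5, from 43261196 to 43334966 on the minus strand. The table holds a further row with the same description, dab2 (ENSDARG00000031761, chromosome 5, 31723622 to 31738713), which was not among the 4 genes and was looked at after its values were seen. Which of these rows encodes the megalin adaptor of the zebrafish pronephros was not settled here. The compact slc26a1 (ENSDARG00000029832) spans 7.99 kb of chromosome 21, from 20287926 to 20295912 on the minus strand. The files give gene spans and no transcript lengths, so levels are compared between libraries and not between genes.

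The comparison of mutants with controls asks whether loss of EpCAM changed the transcripts of the tubule. Among the 4 genes, lrp2b and slc26a1 were counted at higher levels in all 3 mutants than in any control, DAB2 was high in 1 mutant, and lrp2a had no steady direction. Groups without overlap, mutants above, made up 12.8% of the 3869 rows tested. Control counts of lrp2b and slc26a1 were too low for the filter, so both rows passed it only through the mutants. For such rows the filter itself favours mutants above controls, so the lack of overlap is not support for a difference. The 12.8% includes other rows kept in that way. None of the 4 genes passed the quasi-likelihood test of edgeR at a Benjamini-Hochberg adjusted p of 0.05, which called 0% of all rows. At an unadjusted p under 0.05 the same test counted 434 rows (11.2%), 299 of them higher (7.73%) and 135 lower (3.49%) in mutants, and lrp2b was the only one of the 4 genes among them. A fitted level above that of the controls was found for 3 of the 4 genes and for 47.8% of all rows. DESeq2 called 349 of 7961 rows (4.38%), 293 of them higher (3.68%), and limma-voom called 0 rows, with 554 at an unadjusted p under 0.05. In bulk captures fewer cells of a type and less RNA per cell cannot be told apart.

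**Figure D1:**
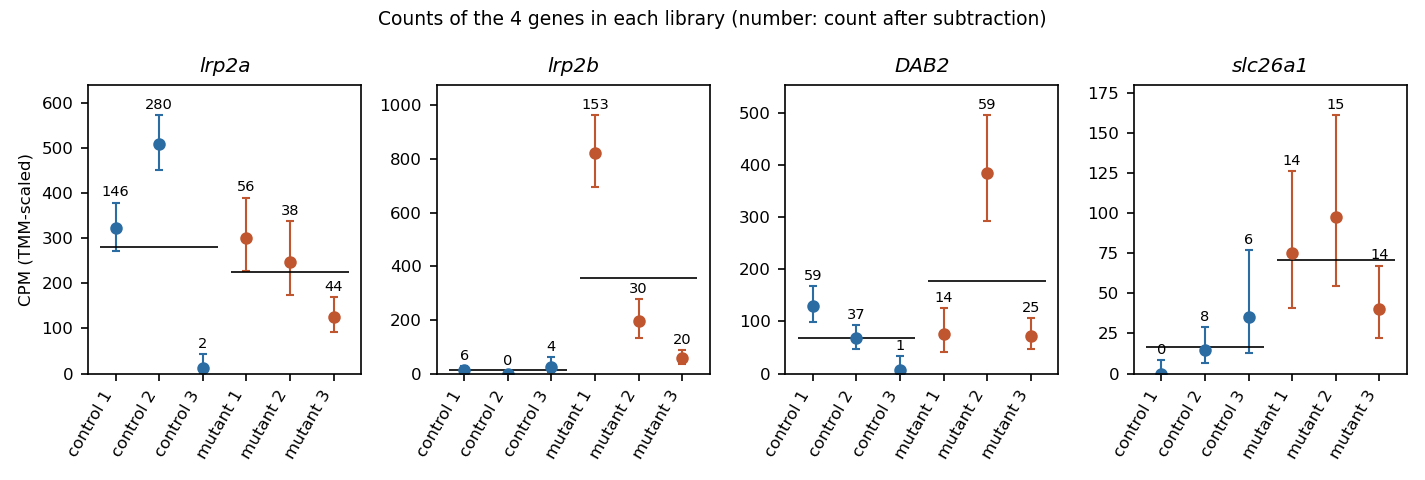
CPM of each gene (TMM-scaled, linear axis from 0) in the 3 control libraries (blue) and the 3 epcam mutant libraries (orange). Points are single libraries with exact Poisson 95% intervals, numbers are counts after subtraction, and black lines are group means. The mutants lie above all controls for lrp2b and slc26a1, and control 3 is the lowest library for lrp2a and DAB2.

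The receptor gene lrp2b was nearly uncounted in the controls. It had 6, 0 and 4 counts in controls 1 to 3 and 153, 30 and 20 counts in mutants 1 to 3. After scaling, the controls were at 13.3, 0 and 23.5 CPM, against 821, 195 and 57.2 CPM for the mutants. Every mutant was above every control, but the mutants themselves differed by more than the distance from mutant 3 to control 3. The row passed the filter on low counts only through the mutants, so this order is not support for a difference. The group levels were 12.3 ± 11.8 CPM in controls and 357.7 ± 407.1 CPM in mutants (SD, n = 3 each). The log2 fold change was 4.94 ± 1.72 (SE), higher in 3 of 3 mutants, with an unadjusted p of 0.0123 and an adjusted p of 0.265 in edgeR's quasi-likelihood test. The two-sided exact permutation test of the CPM gave p = 0.1, the smallest that 3 against 3 libraries allow. DESeq2 on the same counts gave 5.003 ± 1.62 with an adjusted p of 0.0480. The authors' deposited table, which covers 3.83% of the rows by identifier, lists lrp2b with an FDR of 0.0481 and none of the other 3 genes. It gives the same comparison of the same series, for which the submitters name DESeq2. Here and below, its FDRs are therefore not a result independent of the DESeq2 values. Without mutant 1 the edgeR value was 3.36 ± 1.91, and on the values as deposited it was 2.16 ± 1.17.

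The other megalin gene, lrp2a, was counted in every library. It had 146, 280 and 2 counts in controls 1 to 3 and 56, 38 and 44 counts in mutants 1 to 3. After scaling, the controls were at 322, 509 and 11.8 CPM, against 300.5, 247 and 126 CPM for the mutants. The control group holds both the highest libraries and the lowest one, and all 3 mutants lie inside its range. The log2 fold change was -0.10 ± 1.27 (SE, n = 3 per group) with an adjusted p of 0.983 in edgeR's quasi-likelihood test, and the exact permutation p was 0.8. The direction depended on which controls were used. Against controls 1 and 2 the pooled mutant level was 0.471 times as high (95% exact binomial interval 0.386 to 0.572). Against control 3, with 2 counts, it was 17.0 times as high (4.62 to 141.9). Controls 1 and 2 differ from the mutants in project as well as genotype, while control 3 shares the project of the mutants. Both intervals are taken from pooled counts and leave out the spread between libraries. Amplified copies are not independent molecules, so the intervals may be too narrow even for counting error.

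The balance of the 2 megalin genes within a library does not depend on library scaling, and it was examined after the values were seen. It does depend on the subtraction of each column's lowest value. In control 3 the deposited values of lrp2a and lrp2b were 34 and 36, from which 32 was subtracted. Shares on the values as deposited were not computed. The lrp2b share of the summed lrp2a and lrp2b counts was 3.95% in control 1 (6 of 152, exact Clopper-Pearson 95% interval 1.46% to 8.39%) and 0 of 280 in control 2, with an exact upper limit of 1.31% (a floor of 3 counts would be 1.07%). It was 66.7% in control 3, but from 6 counts in all (22.3% to 95.7%). In the mutants it was 73.2% of 209 counts (66.7% to 79.1%), 44.1% of 68 (32.1% to 56.7%) and 31.3% of 64 (20.2% to 44.1%). The shares of controls 1 and 2 lie below those of all mutants, and control 3 lies among the mutants. Control 3 shares the project of the mutants. Controls 1 and 2 differ from the mutants in project as well as genotype, which cannot be told apart in these shares. Group means were 23.5% and 49.5%, with an exact permutation p of 0.3. At 6 counts a difference between control 3 and the mutants was not detectable.

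**Figure D2:**
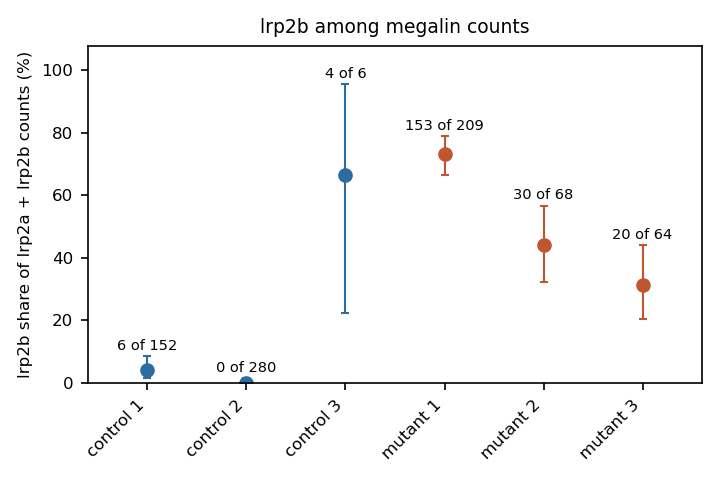
Share of lrp2b (percent, axis from 0) in the summed lrp2a and lrp2b counts of each library, controls in blue and epcam mutants in orange, with exact Clopper-Pearson 95% intervals and the counts above each point. Controls 1 and 2 are at 3.95% and 0, control 3 at 66.7% from 6 counts, and the mutants between 31.3% and 73.2%.

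The row DAB2 was counted 59, 37 and 1 times in controls 1 to 3 and 14, 59 and 25 times in mutants 1 to 3. In CPM the controls were at 130.3, 67.3 and 5.88 and the mutants at 75.1, 383 and 71.5. Mutant 2 was far above every other library, while mutants 1 and 3 lay between controls 1 and 2. Levels were 67.8 ± 62.2 CPM in controls and 177 ± 179 CPM in mutants (SD, n = 3 each). The log2 fold change was 1.58 ± 1.39 (SE), with an adjusted p of 0.716 in edgeR's quasi-likelihood test and an exact permutation p of 0.4. Without mutant 2 the value was 0.15 ± 1.73. The second row of this description, dab2, was counted 6, 27 and 1 times in controls against 5, 3 and 8 times in mutants, and the filter on low counts removed it. Its levels were 22.8 ± 23.1 CPM in controls and 23.1 ± 3.67 CPM in mutants (exact permutation p = 1). It did not show the high value of mutant 2.

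The sulfate exchanger slc26a1 had few counts in any library. There were 0, 8 and 6 counts in controls 1 to 3 and 14, 15 and 14 counts in mutants 1 to 3. Scaled to depth, the controls were at 0, 14.6 and 35.3 CPM, against 75.1, 97.5 and 40.02 CPM for the mutants. The groups did not overlap, but mutant 3 and control 3 are close, and their Poisson intervals overlap. As for lrp2b, the row passed the filter on low counts only through the mutants. Levels were 16.6 ± 17.7 CPM in controls and 70.9 ± 28.97 CPM in mutants (SD, n = 3 each). The log2 fold change was 2.21 ± 1.55 (SE), higher in 3 of 3 mutants, with an adjusted p of 0.651 in edgeR's quasi-likelihood test and an exact permutation p of 0.1. Within the project of control 3 the pooled ratio was 1.77 (95% exact binomial interval 0.749 to 5.08), and the fitted log2 difference there was 0.99 ± 2.08. Leaving out control 1 gave 1.46 ± 1.70.

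Control 3 was the lowest of the 4 libraries of its project for all 4 genes, an order found in 34.9% of all rows tested. With the project as a second term the log2 fold changes were 4.15 ± 1.92 for lrp2a, 3.82 ± 2.53 for lrp2b, 4.798 ± 2.42 for DAB2 and 0.94 ± 1.90 for slc26a1 (SE, edgeR adjusted p from 0.496 to 0.889). Both in that fit and within the project, the mutants are set against control 3 alone. Controls 1 and 2 form a project without mutants, so no comparison can be made inside it. The 2 receptor genes and DAB2 had 2, 4 and 1 counts in control 3. Scaled instead to 1000 counts of nephron markers other than epcam, lrp2b was at 0.712, 0 and 9.69 in controls against 58.5, 81.1 and 10.8 in mutants, which still did not overlap (exact permutation p = 0.1). Control 3 (4 counts) and mutant 3 (20 counts) were close there, and their Poisson 95% intervals in CPM overlap (6.41 to 60.2 against 34.9 to 88.3). The share of all rows without overlap on that scale was not computed. Since the lrp2b row passed the filter on low counts only through the mutants, its order there is not support for a difference. On that scale slc26a1 was at 0, 0.804 and 14.5 in controls against 5.35, 40.5 and 7.56 in mutants, and the groups overlapped (exact permutation p = 0.5). DAB2 on that scale was at 7.001, 3.72 and 2.42 in controls against 5.35, 159.5 and 13.5 in mutants, and lrp2a at 17.3, 28.1 and 4.84 against 21.4, 102.7 and 23.7. Mutant 2 had the lowest marker sum of the mutants, near that of control 3. Its values on that scale are therefore raised by a small denominator.

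**Figure D3:**
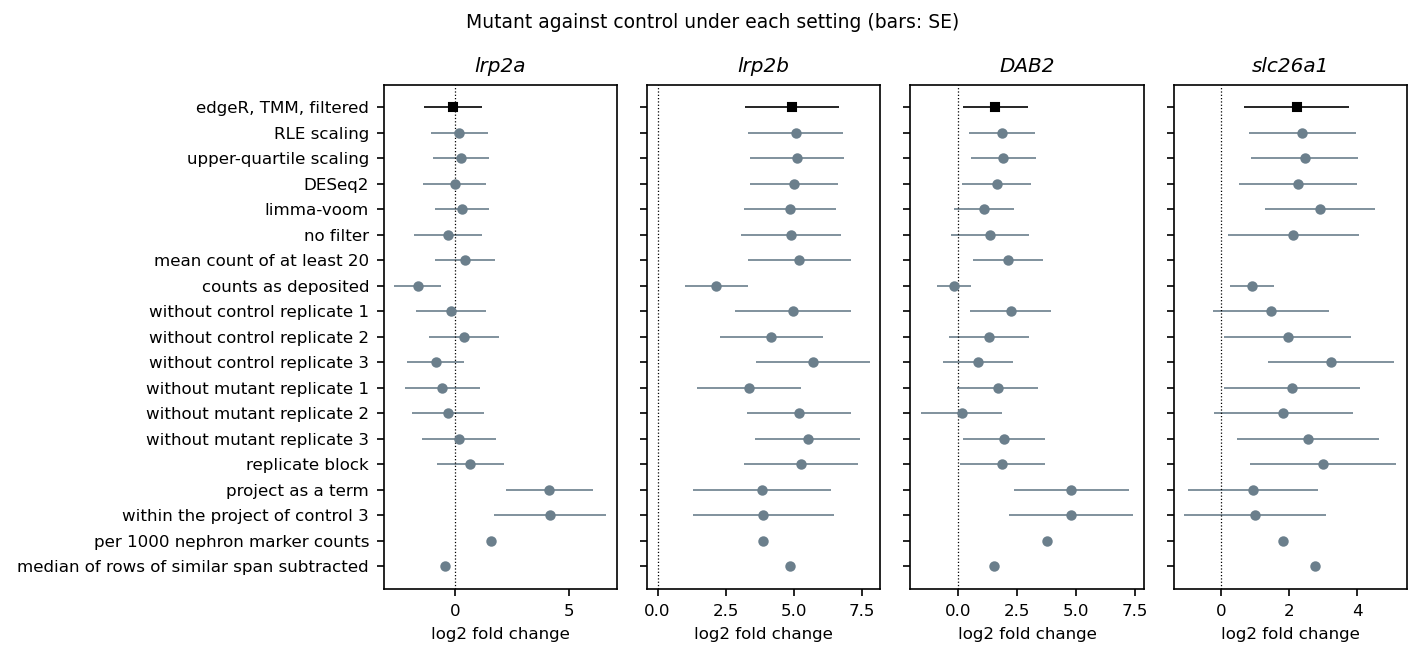
Log2 fold change of each gene, mutant over control, with TMM scaling and the count filter (black square) and under each alternative (grey points), with bars of 1 SE where the fit gives it. Values of lrp2b and slc26a1 are above 0 in every setting drawn, lrp2a lies on both sides of 0, and DAB2 is below 0 only for the values as deposited. The rows of lrp2b and slc26a1 passed the filter on low counts only through the mutants, so their kept direction is not support for a difference. No value for slc26a1 exists at a mean count of at least 20.

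Neither co-receptor gene of megalin, cubn or amn, has a row in the table, so cubilin and amnionless are not analysed here. Partners, adaptors and endosomal machinery of megalin were represented by 42 rows, of which 25 were tested, 11 with a higher and 14 with a lower fitted level in mutants. Their median log2 fold change was -0.15, against -0.10 over all rows tested, and 0 were called. Under RLE scaling the list had 13 higher, 12 lower and a median of 0.06, but the median of all rows tested moved as well, to 0.09. Without the filter all 42 rows had 11 higher, 31 lower and a median of -0.76. In that fit the 3869 rows tested above had a median of -0.23. At an unadjusted p under 0.05 the list had 1 higher and 1 lower row. The higher one was dab1a, which encodes the Reelin pathway adaptor related to DAB2. It was counted 5, 5 and 0 times in controls against 11, 53 and 87 times in mutants, a log2 difference of 5.03 ± 1.57 (SE, 3 libraries a group, edgeR adjusted p = 0.208). The lower one was itsn1, a scaffold of clathrin-coated pits, with 733, 158 and 77 counts against 11, 3 and 15 and a log2 fold change of -4.15 ± 1.34 (edgeR adjusted p = 0.221), which was -3.23 without control 1. The groups did not overlap for either gene. However, dab1a passed the filter on low counts only through the mutants, and itsn1 only through the controls. Both passed in DESeq2, at adjusted p of 0.0302 and 0.0355. The authors' deposited table lists dab1a with an FDR of 0.0287 and itsn1 with 0.0382.

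The rest of the uptake machinery that the naming rule reached gave wide errors. The PDZ adaptor gipc2 was counted 10, 5 and 3 times in controls and 14, 7 and 13 times in mutants, at a log2 fold change of 1.78 ± 1.37. The gipc2 row passed the filter on low counts only through the mutants. The clathrin heavy chain cltca was at -1.77 ± 1.28, and at -0.50 without control 2, which held 663 of its counts. It was at -0.41 within the project of control 3. The log2 fold change of the motor protein myo6a, a myosin of endocytic vesicles, was -1.71 ± 1.23, and 0.31 within that project. The related gene myo6b went the other way, with 1, 0 and 1 counts in controls against 14, 5 and 17 in mutants. It did not pass the filter on low counts and was chosen for mention after its values were seen. The row C23H20orf24, a RAB5-interacting factor in the name table, was at 2.53 ± 1.49, with 133 of its counts in mutant 1. For gipc2, cltca, myo6a and C23H20orf24 edgeR adjusted p ran from 0.595 to 0.677 (SE, n = 3 per group).

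The LDL receptor family other than megalin had 12 rows, of which 9 were tested, 6 with a higher and 3 with a lower fitted level in mutants. Their median log2 fold change was 0.67 and 0 were called. The median was -0.06 without mutant 1, with 5 higher and 6 lower of 11 rows, and -0.21 over all 12 rows on the values as deposited. In those fits the 3869 rows tested above had medians of -0.34 and -0.53, both below the list. Only 1 row had an unadjusted p under 0.05. It was the second of 2 adjacent rows named lrp1ba, an LDL receptor relative of the LRP1 type, with 2, 4 and 3 counts in controls and 124, 8 and 30 in mutants. Its log2 fold change was 4.86 ± 1.59 (SE, 3 libraries a group, edgeR adjusted p = 0.234, DESeq2 adjusted p = 0.0348), and 2.88 without mutant 1. This row passed the filter on low counts only through the mutants. It covers chromosome 22 from 14455943 to 14714916. The first row shares its identifier and covers 14336629 to 14451352, and it was at 0.97 ± 1.51, with 81, 15 and 0 counts against 44, 11 and 21. Since both rows carry 1 identifier, their split into separate counts is uncertain. For lrp12 the counts were 15, 0 and 14 in controls and 40, 26 and 29 in mutants, at 2.05 ± 1.58, and the highest control (82.3 CPM) lay just under the lowest mutant (82.9 CPM). The lrp12 row also passed the filter on low counts only through the mutants. The other named relatives, lrp1bb, LRP10 and sorl1, a sorting receptor, were at 1.304 ± 1.37, -1.12 ± 1.33 and -0.94 ± 1.16. Within the project of control 3, lrp12 was at 0.91, lrp1bb at 0.097 and sorl1 at -0.29.

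Other genes of sulfate transport and use had 13 rows, of which 2 were tested and neither was called. Without the filter the 13 rows had 5 higher, 8 lower and a median log2 fold change of -0.60, and on the values as deposited a median of 0.13, so the 2 tested rows, both high in the controls, do not stand for the list. Both lay below all controls in every mutant, an arrangement found in 9.41% of all rows tested. The sulfotransferase gene sult6b1 had 712, 549 and 45 counts in controls and 13, 7 and 43 in mutants, at a log2 fold change of -3.39 ± 1.27 (SE, 3 libraries a group, edgeR adjusted p = 0.318). Within the project of control 3 it was at -1.71. The slc26 family member slc26a5, known in mammals as prestin of the inner ear, had 79, 133 and 39 counts in controls and 6, 2 and 16 in mutants, at -2.69 ± 1.29 (edgeR adjusted p = 0.469). The slc26a5 row passed the filter on low counts only through the controls. Only sult6b1 had an unadjusted p under 0.05. The sodium sulfate cotransporter gene slc13a1, which in mammals brings sulfate in across the apical membrane of the proximal tubule, did not pass the filter on low counts and was chosen for mention after its values were seen. It was not counted in any control and had 4, 17 and 6 counts in mutants 1 to 3. The mutant mean was 5.02 times the mean control floor of 3 counts, 1.95 times without mutant 2 and 8.23 times without control 3. This ratio of means is not a bound for each library. Mutant 2 was at 110.5 CPM, while mutant 3, at 17.2 CPM, lay just below the floor of control 3 (17.6 CPM). The authors' deposited table lists slc13a1 with an FDR of 0.0453, while DESeq2 on the counts used here gave an adjusted p of 0.0639 and edgeR's quasi-likelihood test without the filter gave 0.178.

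Other proximal tubule genes had 36 rows, of which 10 were tested, 3 with a higher and 7 with a lower fitted level in mutants. Their median log2 fold change was -1.45 and 0 were called. Without control 3 it was 0.025, with 11 higher and 10 lower of 21 rows. Over all 36 rows it was -1.11 without the filter (13 higher, 23 lower) and 0.077 on the values as deposited. In those fits the 3869 rows tested above had medians of -0.14 without control 3, -0.23 without the filter and -0.53 as deposited. Only gatm, an enzyme of creatine synthesis, had an unadjusted p under 0.05, with 52, 158 and 214 counts in controls and 2, 0 and 6 in mutants. Its log2 fold change was -5.77 ± 1.63 (SE, 3 libraries a group, edgeR adjusted p = 0.170), lower in 3 of 3 mutants, DESeq2 gave an adjusted p of 0.0168, and the authors' deposited table gives it an FDR of 0.0194. Its row passed the filter on low counts only through the controls, and without control 3 its value was -4.29. In the other direction, slc22a7b.1, an organic anion transporter, did not pass the filter on low counts and was chosen for mention after its values were seen. It was counted 0, 0 and 0 times in controls against 1, 6 and 62 times in mutants. The mutant mean was 7.46 times the mean control floor of 3 counts, 2.24 times without mutant 3 and 12.2 times without control 3. This ratio of means is not a bound for each library. Mutant 3 was at 177 CPM, while mutant 1, at 5.37 CPM, lay below the floor of control 3 (17.6 CPM). DESeq2 gave slc22a7b.1 an adjusted p of 0.0452, and edgeR's quasi-likelihood test without the filter gave 0.111. The authors' deposited table lists it with an FDR of 0.0344. Of the others, slc7a8b, an amino acid transporter, was at -2.33 ± 1.21, the aconitase and iron regulator aco1 at -2.29 ± 1.46 and the pronephric transcription factor hnf1ba at -1.72 ± 1.21. Without control 1 aco1 was at -1.64 and hnf1ba at -0.98, and with a project term they were at -0.31 and -0.29, while slc7a8b was at -2.53. The bicarbonate cotransporter slc4a4b was at 2.56 ± 1.72, and at 4.45 without control 1. The dicarboxylate transporter slc13a2 had 381 of its counts in control 3, at -3.10 ± 2.07, and was at 5.15 without that library. Summed over the 36 rows, proximal genes were at 3077 to 6508 CPM in controls and 1464 to 2645 CPM in mutants. A few abundant rows weigh heavily in these sums. In control 3 slc13a2 and gatm were at 2240 and 1258 CPM. In control 2 slc20a1b was at 1152 CPM, and in control 1 hnf1ba, also among the distal and pan-pronephric markers, was at 1294 CPM. The sums therefore do not stand for the list. Over all 4 lists, 5 of 103 rows (4.85%) appear in the authors' deposited table, against 3.83% of all rows. Of the 46 rows tested in these lists, 5 had an unadjusted p under 0.05 in edgeR's quasi-likelihood test. Over all rows it was 434 of 3869 (11.2%).

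**Figure D4:**
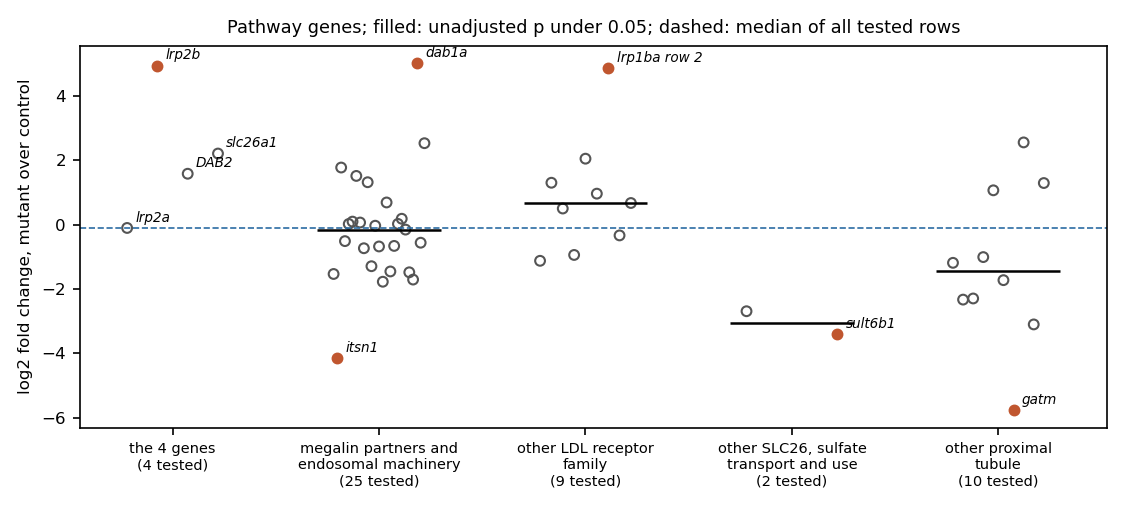
Log2 fold change, mutant over control, of the 4 genes and of the tested rows of the 4 pathway lists, with filled points for an unadjusted p under 0.05 in edgeR's quasi-likelihood test. Short black lines are medians of the tested rows of each list (-0.15, 0.67, -3.04 from 2 of 13 rows, and -1.45) and the dashed line is the median of all 3869 tested rows (-0.10).

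The libraries in which each gene was high or low were compared with all other tested rows by the root mean square difference of log2 CPM over the 6 libraries, after each row was centred on its own mean. For lrp2a the most similar rows were rnf19a, a ubiquitin ligase, igsf9a, an immunoglobulin superfamily member, and the translation factor eif4bb, at 0.28, 0.31 and 0.37, against a median of 2.096 over all rows. The counts of rnf19a were 77, 156 and 1 in controls and 31, 13 and 25 in mutants, so it shared the low value of control 3. For lrp2b they were gabrz, named for a GABA receptor subunit, ralgapa2, a GTPase-activating subunit, and zcchc14, a zinc finger gene, at 0.44, 0.56 and 0.58 against a median of 2.68. The counts of gabrz were 5, 0 and 4 in controls and 72, 34 and 12 in mutants. For DAB2 they were si:ch211-235f12.2, the secreted factor ndnf and the lipid desaturase degs1, at 0.51, 0.51 and 0.54 against a median of 2.04. For slc26a1 they were hoxb1b, a hindbrain homeobox gene, the kinase WNK4 (1 of 2) and the Eph receptor ephb3a, at 0.12, 0.30 and 0.32 against a median of 1.91. With so few counts per library, such likeness describes these 6 libraries only.

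Among themselves the 4 genes were less alike. The closest pair was lrp2a and DAB2, at a root mean square difference of 1.08, and DAB2 ranked 227th among all rows by likeness to lrp2a. Next came lrp2b and slc26a1, at 1.59. The 2 megalin genes differed most, at 2.73, above the median over all rows for either gene.

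Some marker lists of other cell types moved with the groups and others overlapped, and their part in these results was not tested. Neuron, glia and sensory markers (12 rows) summed to 173 to 422 CPM in controls and 558 to 1061 CPM in mutants. The neuronal RNA-binding gene elavl4 had 40, 2 and 5 counts in controls and 10, 49 and 58 in mutants. The pigment enzyme tyr had 18, 83 and 28 against 16, 27 and 6. Blood markers (7 rows) were at 106 to 160 CPM in controls and 333 to 683 CPM in mutants. The blood row csf1ra had 1, 1 and 0 counts in controls and 3, 3 and 200 in mutants, so it weighs heavily in mutant 3. The next most abundant blood row, spi1b, had 28, 5 and 14 counts in controls and 10, 36 and 7 in mutants, without a steady direction. Podocyte markers (5 rows) overlapped, at 142 to 285 against 279 to 643 CPM. Their most abundant rows went opposite ways. The counts of foxc1a were 23, 1 and 0 in controls against 28, 62 and 52 in mutants, and those of podxl 58, 21 and 33 against 4, 4 and 20. Endothelial markers (10 rows) overlapped, at 278 to 934 against 258 to 577 CPM. So did muscle markers (20 rows), at 1135 to 35710 against 4250 to 9909 CPM. Gut, liver and yolk markers (30 rows) were at 14289 to 132747 CPM in controls and 1035 to 1964 CPM in mutants, and epidermal markers (18 rows) at 3304 to 46485 against 678 to 3150 CPM. Of the abundant rows of these lists, apobb.1 had 2108, 4379 and 6203 counts in controls 1 to 3, and krt4 had 97, 179 and 4263. Both were highest in control 3. The epidermal row krt8 went the other way, with 1204, 1883 and 384 counts. Gene span also moved with the comparison. The median log2 fold change was -0.55 in the shortest span quartile of tested rows and 0.16 in the longest. Among rows within 1.5-fold of each gene's span it was 0.35 for lrp2a, 0.07 for lrp2b, 0.07 for DAB2 and -0.55 for slc26a1.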

How the data were processed

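The deposited table of filtered raw counts was used; per the submitters' processing notes, reads were handled by the authors with TopHat2 2.1.0 and Trimmomatic 0.36.0, GRCz10 and DESeq2 are also named, and the counting tool and row filter are not given. The authors' deposited table of adjusted p-values (FDR) was used only as quoted. The lowest value of each column was subtracted from the deposited counts, an inference from the values that no header states. Of 10022 rows, 9641 had an identifier in the name table. Counts were tested with edgeR 4.0.16 in R 4.3.3: TMM scaling, filterByExpr by group (3869 rows kept), robust quasi-likelihood fit with group as the only term, Benjamini-Hochberg adjustment over all rows tested and a threshold of 0.05. Each standard error was taken as |log2 fold change| over √F. Single levels were compared with two-sided exact permutation tests. Alternatives used DESeq2 1.42.0, limma 3.58.1, other scalings and filters, the values as deposited, the project, the replicate block and each library left out. The scripts were tested on simulated counts. The 4 genes, the gene lists and the tests were chosen with earlier results of these data known. Besides the 4 genes and epcam, the text names up to 6 genes with the smallest p from each of 4 pathway lists, the 3 rows most like each gene (log2 CPM with a prior count of 2) and, for markers, abundant rows. A listed row was matched by its name in the file or in the name table.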

Additional observations from a re-analysis of the deposited data

How the results depend on the processing

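The count of rows past the threshold was 0 in edgeR and 349 in DESeq2 (293 higher, 56 lower), 53 without the filter (31 higher, 22 lower), 6 with a project term (all lower) and 12 within control 3's project (all lower). With each library left out it stayed at 0 to 0, and in the other alternatives (RLE and upper-quartile scaling, limma-voom, a mean count of at least 20, the values as deposited) it was also 0. The gene lrp2b kept its direction in all 18 alternatives, and DESeq2 alone put it past the threshold (5.003, adjusted p 0.0480; adjusted p over all alternatives 0.0480 to 0.705). Its values with a library left out ran from 3.36 to 5.69. These alternatives reuse the same libraries, and the lrp2b row passed the filter on low counts only through the mutants. The kept direction is therefore not support for a difference. For lrp2a the sign turned with RLE scaling (0.18), upper-quartile scaling (0.25), limma-voom (0.28), a mean count of at least 20 (0.43), the replicate block (0.66), a project term (4.15), control 3's project alone (4.19) and per 1000 nephron marker counts (1.56), and leaving out a library gave -0.88 to 0.37. For DAB2 it turned on the values as deposited (-0.17), and leaving out a library gave 0.15 to 2.23. For slc26a1 leaving out a library gave 1.46 to 3.22. The epcam difference in CPM, -36.1, was 13.4 on the values as deposited and -43.0 to -24.7 with a library left out. RLE and upper-quartile scaling moved the median of all rows by 0.19 and 0.29 (log2), and the values as deposited by -0.43. Of rows at an unadjusted p under 0.05, 68.9% were higher in mutants, against 16.5% on the values as deposited. Among the other named genes, myo6a turned with a project term (0.23) and within control 3's project (0.31), and the first lrp1ba row on the values as deposited (-0.37). Leaving out a library gave that row -0.11 to 3.02, C23H20orf24 -0.77 to 3.08 and LRP10 -1.88 to 0.58. The transporter slc13a2 turned with limma-voom (2.68), the replicate block (2.30) and, over libraries left out, ran from -3.94 to 5.15, the latter without control 3. Rows like lrp2a also turned. For rnf19a the values were 0.047 with upper-quartile scaling, 0.22 at a mean count of at least 20, 0.44 with the block, 4.04 with the project, 4.06 within it and -1.06 to 0.23 with a library left out. For igsf9a they were -0.89 as deposited and -0.48 to 0.83 with a library left out. For eif4bb they were 0.19 with RLE scaling, 0.26 with upper-quartile scaling, 0.0075 in DESeq2, 0.46 at a mean count of at least 20, 0.61 with the block, 7.12 with the project, 6.48 within it and -1.08 to 0.31 with a library left out. No value for slc26a1 exists at a mean count of at least 20. The cause was not tested. Same-numbered libraries had correlated deviations of -0.057 to 0.080 across genes, and 3 of 6 libraries correlated best with their own number, so the numbers were not taken as pairs. The replicate block called 0 rows, and gave lrp2b 5.26. The nephron scaling, the span adjustment and the lrp2b share were added after seeing the data. At 0 to 8 control counts for lrp2b and slc26a1, depth limits their folds.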
